A study of Mus musculus with 8 samples.

Results

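The metabotropic glutamate receptor genes Grm2, Grm3, Grm4, Grm5, Grm7 and Grm8 were followed across the 8 libraries of a mouse brain RNA-seq series. They were chosen by name, as the rows of the count table that carry these 6 symbols, out of 17613 genes in all. All 6 passed the filter on low counts, which left 15902 tested genes. The series compared brains of wild-type C57BL/6 mice (WT, 4 libraries) with brains of C57BL/6 mice labelled as Uhrf2 knockout (KO, 4 libraries), and its title links UHRF2, a reader of modified cytosine, to spontaneous seizures. The labels give no age, sex, allele, deleted exon or brain region, and do not say whether each library came from a separate animal.

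Metabotropic glutamate receptors are G protein-coupled receptors that slow or tune synaptic transmission, whereas the ionotropic receptors carry the fast current. Group I receptors, here Grm5, sit mainly on the postsynaptic side and signal through Gq to phospholipase C, inositol trisphosphate and calcium release. Group II (Grm2 and Grm3) and group III (Grm4, Grm7 and Grm8) signal through Gi/o, lower cyclic AMP and, mostly from presynaptic terminals, reduce transmitter release. Agents that act on these receptors change seizure thresholds in rodents, which is why the family is of interest in a seizure model.

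The libraries held 11891350 to 19773921 counts. Levels are given as CPM, counts scaled to library size, and 3 counts amount to 0.152 to 0.252 CPM. The 2 libraries numbered 1 lay apart from the other 6 on the second principal component (19.8% of the variance), so results were also computed without them. Uhrf2, the targeted gene, was higher in KO (88.8 ± 2.23 CPM, SD, n = 4) than in WT (55.4 ± 5.22 CPM), opposite to what the genotype label implies. A gene total cannot show whether the reads come from the deleted part, so all differences below are between the libraries as labelled. Markers of neurons (Snap25 highest, at 2533 CPM), astrocytes (Slc1a3, 749 CPM) and oligodendrocytes (Mbp, 3389 CPM) were abundant.

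None of the 6 receptors passed the test between the genotypes, and in all 6 the WT and KO libraries overlapped. The fold of KO over WT ran from 0.963 for Grm7 to 1.08 for Grm2, and the 95% intervals of the 6 genes lay between 0.881-fold and 1.18-fold. Of all 15902 tested genes, 1.43% passed an adjusted p of 0.05 (quasi-likelihood test of edgeR), and in 7.67% the groups did not overlap. At an unadjusted p under 0.05 the count was again 0 of 6 receptors, against 12.6% of all tested genes, and DESeq2 and limma-voom also called 0 of 6. Without both libraries numbered 1, edgeR called 0 of 6 as well. The median log2 fold change of the 6 was 0.0019, beside -0.0049 over all tested genes, and the median size of the change, regardless of sign, was 0.043 beside 0.071. The 0.071 is over tested genes of every level and was not matched to the levels of the receptors. In bulk tissue fewer cells of a type and less RNA per cell cannot be told apart, so a level below is that of the whole sample.

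**Figure D1:**
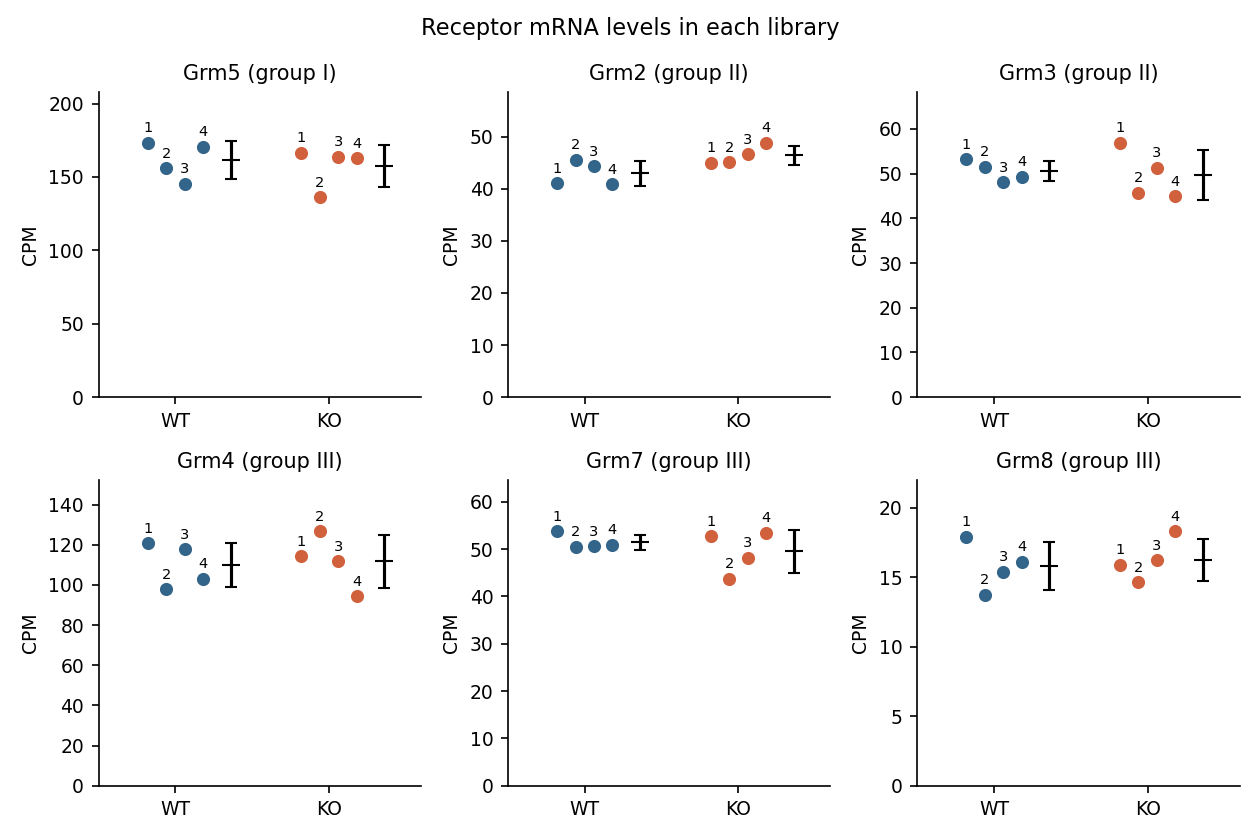
Level of each receptor in every library, in CPM on axes that start at 0, with points numbered by replicate and the mean ± SD of the 4 libraries of each group beside them. WT and KO points overlap in all 6 panels, and KO replicate 2 is the lowest of the 8 libraries for Grm5 and for Grm7.

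Grm5, the group I member, encodes mGluR5, a postsynaptic receptor of forebrain neurons that also occurs in astrocytes. It had the highest counts of the 6, with 173, 156, 146 and 171 CPM in WT replicates 1 to 4 and 167, 136, 164 and 163 CPM in KO replicates 1 to 4. KO replicate 2 was low and the other 3 KO libraries lay inside the WT range. The means were 161 ± 13.0 CPM in WT and 157 ± 14.1 CPM in KO (SD, n = 4), with a log2 fold change of -0.03 (SE 0.07, adjusted p = 0.896). The 95% interval of the fold was 0.882 to 1.08.

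Of the group II receptors, Grm2 came nearest to a difference. It encodes mGluR2, a presynaptic autoreceptor. Its level was 41.1, 45.6, 44.3 and 40.9 CPM in the WT libraries and 45.0, 45.1, 46.7 and 48.8 CPM in the KO libraries. WT replicates 1, 3 and 4 lay under every KO library, but WT replicate 2 stood above KO replicates 1 and 2. Means were 43.0 ± 2.35 CPM in WT and 46.4 ± 1.78 CPM in KO (SD, n = 4), a log2 fold change of 0.11 (SE 0.05, adjusted p = 0.433). Among all tested genes, 14.6% had a lower p. The value was positive in all 17 alternative fits, from 0.084 to 0.14, and in none of them did it pass, with an adjusted p of 0.33 to 0.65.

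Grm3 encodes mGluR3, the group II receptor that is also abundant in astrocytes. It stood at 53.2, 51.5, 48.1 and 49.3 CPM in the WT libraries and at 56.9, 45.7, 51.4 and 45.0 CPM in the KO libraries. The KO libraries spread on both sides of the WT range, so that their SD was 5.55 CPM around a mean of 49.8, compared with 2.26 CPM around 50.6 in WT. On the log2 scale the fold change was -0.02 (SE 0.07, adjusted p = 0.939). The ratio of Grm2 to Grm3 counts within a library was 0.851 ± 0.0648 in WT and 0.943 ± 0.124 in KO (SD, n = 4), and ran from 0.772 to 0.920 and from 0.792 to 1.08, so these ranges overlapped too.

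In group III, Grm4 was the most abundant and Grm8 the least. Grm4 encodes mGluR4, which in cerebellum sits on the parallel fibre terminals of granule cells. Its values were 121, 97.9, 118 and 103 CPM in WT and 114, 127, 112 and 94.4 CPM in KO. Both the highest and the lowest library were KO libraries, replicates 2 and 4. The means, 110 ± 11.1 and 112 ± 13.3 CPM (SD, n = 4), gave a log2 fold change of 0.03 (SE 0.09, adjusted p = 0.951), the least precise of the 6 estimates.

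Grm7 encodes mGluR7, a widespread receptor of the presynaptic active zone with low affinity for glutamate. It was the most even of the 6 across the WT libraries, at 53.7, 50.5, 50.5 and 50.9 CPM, and stood at 52.7, 43.7, 48.2 and 53.4 CPM in the KO libraries. KO replicates 2 and 3 lay under the WT range and the other 2 inside it. Its log2 fold change was -0.06 (SE 0.06, adjusted p = 0.776). The value went from -0.094 without KO replicate 4 to -7.1e-05 without KO replicate 2, which left no difference once that library was out.

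Grm8 encodes mGluR8, a presynaptic receptor with a more restricted distribution. It held 213 to 308 counts per library, with 17.9, 13.7, 15.4 and 16.1 CPM in WT and 15.9, 14.7, 16.2 and 18.3 CPM in KO. WT replicate 2 was lowest and KO replicate 4 highest. KO over WT gave a log2 fold change of 0.05 (SE 0.09, adjusted p = 0.877), with a 95% interval of the fold from 0.909 to 1.18.

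**Figure D2:**
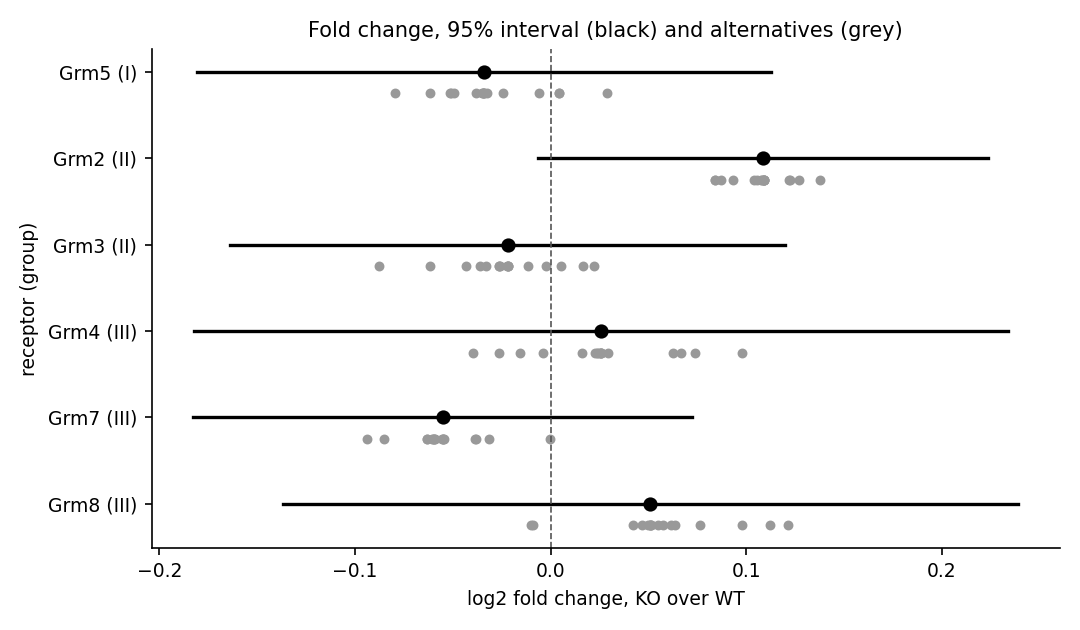
Log2 fold change of KO over WT for each receptor, with its 95% interval in black and the values under 17 alternative fits as grey points. All 6 intervals include 0, and the grey points of Grm2 stay to the right of 0.

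The spread between libraries was set beside the error that counting alone gives. For Grm4 the coefficient of variation within a group was 10.1% in WT and 11.9% in KO, where counting error gives 2.44% and 2.42%. Grm5 varied by 8.06% and 8.95%, where counting gives 2.0% and 2.03%. For Grm2 in KO (3.83% beside 3.73%) and Grm7 in WT (3.03% beside 3.55%) the spread was close to counting error. It was larger for Grm2 in WT (5.46% beside 3.91%) and for Grm7 in KO (9.13% beside 3.61%). Grm3 varied by 4.48% in WT and 11.15% in KO, where counting gives 3.58% and 3.61%. Grm8, the shallowest, had 11.0% and 9.32% beside a counting error of 6.41% and 6.31%.

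Between receptors, levels were compared per kilobase of exon, from the union of all annotated exons in GENCODE M21. On this scale Grm4 (18.5 ± 1.90 CPM per kilobase, SD over 8 libraries), Grm3 (16.5 ± 1.29) and Grm5 (15.6 ± 1.24) were the highest, and the ranges of neighbours in this order overlapped. Grm2 (9.13 ± 0.544) and Grm7 (8.57 ± 0.560) followed, again with overlapping ranges, and were separated from the 3 above. Grm8 was lowest at 1.62 ± 0.155 CPM per kilobase, 5.29-fold under Grm7. The median over 15677 tested genes with a length was 5.66 CPM per kilobase, and 81.5% of them lay below Grm4 but 22.4% below Grm8.

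The order depended on the length used. Per kilobase of the longest protein-coding transcript, Grm5 (19.8 CPM per kilobase) passed Grm3 (16.5) and Grm7 (12.02) passed Grm2 (9.49), while Grm4 (24.1) stayed first and Grm8 (4.16) last. Grm8 moved most in proportion, from 1.62 to 4.16 CPM per kilobase. Its annotated exons sum to 9.898 kb while its longest protein-coding transcript has 3.856 kb. Summed per kilobase of exon within each library, group I made up 22.6% ± 1.5 of the 6 receptors in WT and 22.0% ± 1.65 in KO (SD, n = 4). Group II made up 36.4% ± 1.61 and 36.9% ± 0.830, and group III 41.1% ± 2.02 and 41.2% ± 2.25. These shares depend on the length as well, since Grm3 keeps its level on the other length while Grm4, Grm5, Grm7 and Grm8 rise. The SDs do not cover that choice, and shares on the other length were not computed.

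**Figure D3:**
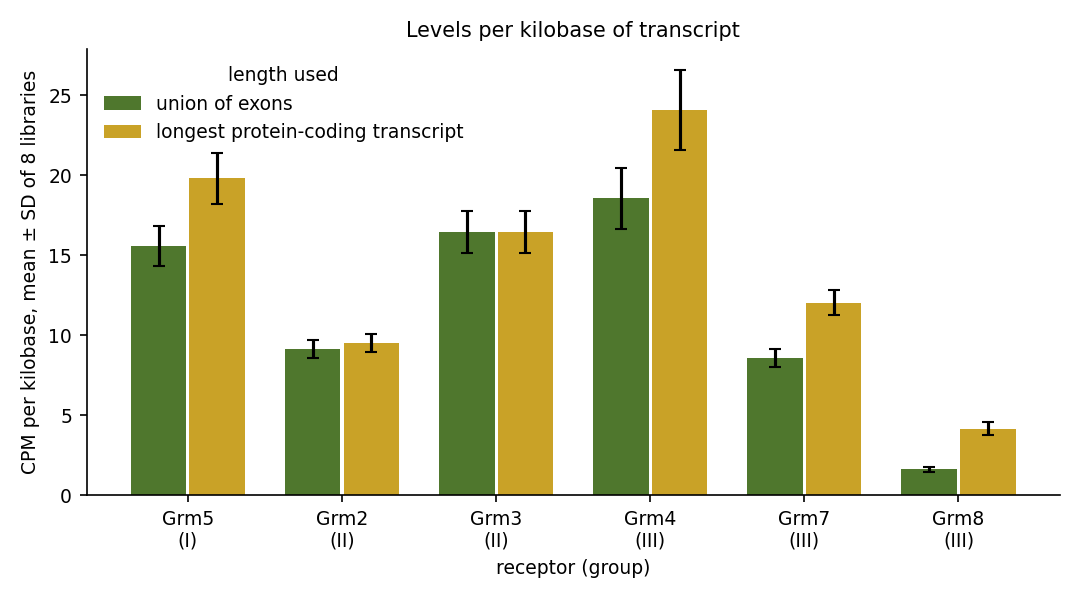
Mean level of each receptor over the 8 libraries in CPM per kilobase, with bars from 0 and the SD as error bars, for the 2 definitions of length. Grm4 is highest and Grm8 lowest under both, while Grm5 and Grm3, and Grm7 and Grm2, change places.

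The members differ widely in gene size and lie on 5 chromosomes. On GRCm38 by GENCODE M21, Grm2 (ENSMUSG00000023192) spans 13.0 kb on chromosome 9 from 106643095 to 106656082, the shortest of the 6. Grm3 (ENSMUSG00000003974) lies on chromosome 5 from 9485541 to 9725170, Grm4 (ENSMUSG00000063239) on chromosome 17 from 27422387 to 27521403, and Grm5 (ENSMUSG00000049583) on chromosome 7 from 87584168 to 88134907. Grm7 (ENSMUSG00000056755) and Grm8 (ENSMUSG00000024211) are both on chromosome 6, from 110645581 to 111567230 and from 27275119 to 28135178, and are the longest, at 921.6 and 860.1 kb. The exons of Grm7 share 130 bases with those of Gm20387, annotated as antisense, which had 30 to 46 counts per library. Whether reads in that stretch were assigned by strand is not known. Grm2 shares 470 exonic bases with the antisense gene Gm28111, and Grm8 shares 96 with the microRNA gene Mir592 on its own strand, and neither neighbour was analysed here.

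Because UHRF2 binds modified cytosine, the CG dinucleotides of the promoter windows were counted, although methylation was not analysed here. RefSeq windows on GRCm38.p6, from 250 bases before to 50 after a start site, were found for 4 of the 6 members. The window of Grm2 holds 22 CG dinucleotides and that of Grm3 holds 11, and the windows of Grm7 hold 10 and 15. Grm8 has 3 windows, with 33, 10 and 2. The median over all 32851 windows is 7, and 23.1% of them hold at least as many as that of Grm2.

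Genes of the receptors' pathway were read from 5 lists by role, with 65 tested genes in all. Of these, 3 rose in the libraries labelled KO, 0 fell and 62 did not pass, where 1.14% of all tested genes rose and 0.289% fell. WT and KO ranges were separate in 8 of them, where this held for 7.67% of all tested genes. The 3 that rose were Grasp, Rgs2 and Adcy5. The median log2 fold change of the 65 was 0.017.

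Among 15 scaffolds and partners, 1 rose. Grasp, which encodes tamalin, a scaffold that binds group I receptors and their trafficking machinery, stood at 26.6, 33.5, 28.5 and 26.6 CPM in the WT libraries and at 55.8, 55.1, 48.5 and 47.4 CPM in the KO libraries. Every KO library lay well above every WT library. The difference was 0.84 on the log2 scale (SE 0.08, adjusted p = 1.22e-05), 1.79-fold, and it passed in all 17 alternative fits. Homer1, whose long forms link group I receptors to inositol trisphosphate receptors, is named here with its values known. The gene total, which does not separate these long forms from other forms, stood at 130, 103, 114 and 158 CPM in WT and 234, 157, 170 and 175 CPM in KO. WT replicate 4 stood just above KO replicate 2, so the ranges overlapped, and Homer1 did not pass (log2 fold change 0.55, SE 0.18, adjusted p = 0.281). In this list 13 of 15 values were positive, at a median of 0.051, where 48% of all tested genes had a positive value. The list was drawn up with earlier results of these data known, so this count is only a description and was not tested.

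Of 11 kinases, arrestins and RGS proteins that end receptor signalling, 1 rose. Rgs2, which speeds the turn-off of Gq, stood at 57.0, 61.0, 58.3 and 62.7 CPM in WT and at 91.8, 74.4, 79.9 and 70.2 CPM in KO. All 4 KO libraries were above the WT range, with KO replicate 1 the highest. The difference was 0.40 on the log2 scale (SE 0.07, adjusted p = 0.00536), 1.32-fold, and it passed in all 17 alternatives. Only 4 of the 11 values were positive, and the median of the list was -0.016.

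In the Gi/o and adenylyl cyclase arm, the effectors of groups II and III, 1 of 18 genes rose. Adcy5, an adenylyl cyclase abundant in striatum, stood at 248, 261, 248 and 266 CPM in WT and at 287, 283, 284 and 292 CPM in KO (log2 fold change 0.17, SE 0.04, adjusted p = 0.0345). The groups did not overlap, but the call was lost in 8 of 17 alternatives, at an adjusted p of up to 0.141. These were the fits without WT replicates 1, 2 or 3, without KO replicates 1, 3 or 4, without both libraries numbered 1, and with GC content and length trends removed. All 8 striatal markers had positive log2 fold changes, where 48% of all tested genes did. Of the 8, 2 passed the threshold, where 1.14% of all tested genes rose past it. The sum of the striatal markers ran from 773 to 860 CPM in WT and from 861 to 938 CPM in KO. The part of this in the Adcy5 value was not tested.

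The Gq and phospholipase C arm, the effectors of Grm5, had 0 of 14 genes past the threshold by edgeR, and 2 at an unadjusted p under 0.05, a share near the 12.6% of all tested genes. Its lowest p values were those of Dagla, the lipase that makes an endocannabinoid after group I activation (log2 fold change 0.18, SE 0.05, adjusted p = 0.0857), and the protein kinase C gene Prkca (0.16, SE 0.06, adjusted p = 0.26). The groups did not overlap for Dagla, as in 7.67% of all tested genes, and overlapped for Prkca. Of 7 glutamate transporters 0 passed by edgeR, with 2 at an unadjusted p under 0.05, where 12.6% of all tested genes were. The astrocyte transporter gene Slc1a3 had a log2 fold change of -0.13 (SE 0.03, adjusted p = 0.088), and its groups did not overlap. The vesicular transporter gene Slc17a7 had one of 0.11 (SE 0.04, adjusted p = 0.26), with overlapping groups. The 6 astrocyte markers summed to 1560 to 1622 CPM in WT and 1469 to 1661 CPM in KO. Slc1a3 is the highest of them, at 749 CPM, so this sum is not independent of it.

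**Figure D4:**
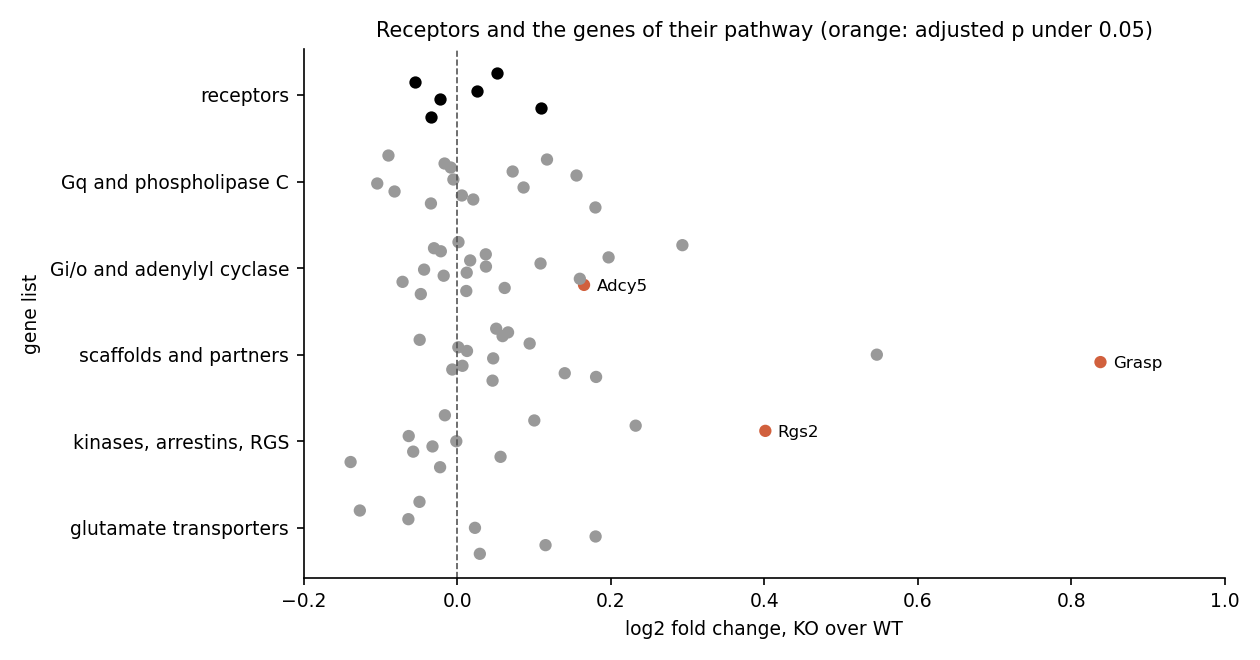
Log2 fold change of KO over WT for the 6 receptors (black) and for the 65 tested genes of the 5 pathway lists, 1 point per gene, with genes at an adjusted p under 0.05 in orange and named. The receptors lie close to 0, while Grasp, Rgs2 and Adcy5 are the 3 orange points.

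Correlations between receptors across libraries ran in both directions. Of 15 pairs, Grm5 and Grm7 had the highest correlation of log2 CPM (Pearson r = 0.765, Spearman rho = 0.69, n = 8 libraries), and r ran from 0.373 to 0.859 as each library was left out. Grm5 with Grm8 (r = 0.603) and Grm7 with Grm8 (r = 0.582) were positive as well. The most negative were Grm4 with Grm7 (r = -0.46), with Grm5 (r = -0.394) and with Grm2 (r = -0.367), but leaving out 1 library took these to -0.014, 0.014 and -0.003, so each rests on a single library. These are descriptions over 8 libraries that share their scaling, with WT and KO pooled, and no p was computed.

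Regional markers varied between these brain samples, and some receptors varied with them. Markers of cerebellar granule cells, 8 genes with Cbln3 the highest, summed to 1142, 895, 1019 and 977 CPM in WT and 966, 1000, 925 and 750 CPM in KO. Grm4 was lowest in the library with the smallest sum, KO replicate 4, and over the 8 libraries its correlation with the sum was r = 0.799 (rho = 0.857). It was 0.727 without the 2 libraries farthest from the median. With the Purkinje cell marker sum Grm4 had a similar r of 0.767, and 0.542 without the 2 farthest libraries. Grm2 went the other way with the granule cell sum, at r = -0.807 (rho = -0.786). Without the 2 libraries farthest from the median of that sum it was -0.417, so the size of its value rests on them. With the olfactory bulb sum Grm2 had r = 0.759, and 0.748 without the 2 farthest libraries. For CA field pyramidal neurons the values were 0.586 and 0.916, and for dentate gyrus granule cells -0.79 and -0.551. The CA field sum ran from 301 to 344 CPM in WT and from 352 to 388 CPM in KO. Mean Grm2 was also higher in KO, so its r with this sum includes the difference between the groups. Cortical excitatory neuron markers, 6 genes with Tbr1 the highest, summed to 155 CPM in WT replicate 3 and 157 CPM in KO replicate 2, apart from 186 to 195 CPM in the other 6 libraries. Those 2 libraries had the lowest Grm5, at 146 and 136 CPM, and among the other 6 the correlation was r = 0.565. For Grm3 and the astrocyte sum, r was 0.717 (rho = 0.762) but 0.217 without the 2 farthest libraries, so that relation rests on them. In all, 84 such correlations were computed, for 14 marker lists. They pool WT and KO without taking out the group means, so any difference between the groups enters them. The part of regional makeup in the receptor values was not tested.

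**Figure D5:**
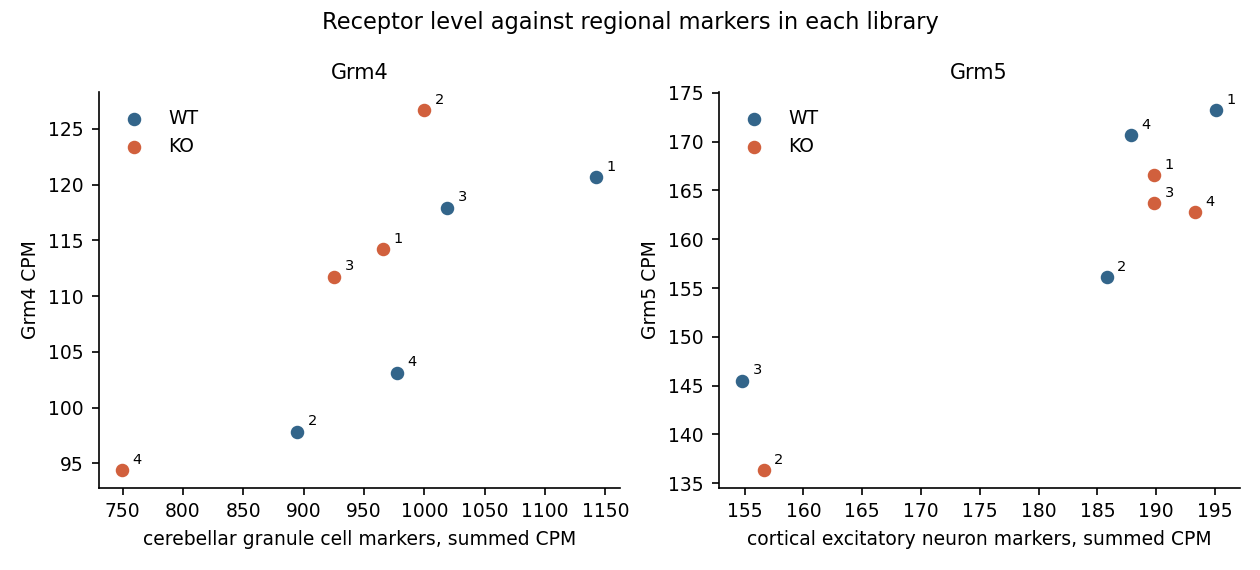
CPM of Grm4 against the summed CPM of cerebellar granule cell markers, and of Grm5 against that of cortical excitatory neuron markers, with 1 point per library numbered by replicate and axes that do not start at 0. KO replicate 4 is lowest on both axes for Grm4, and WT replicate 3 and KO replicate 2 stand apart for Grm5.

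The genes most like each receptor over the 8 libraries, with WT and KO pooled, were taken from 11259 others with a mean of at least 5 CPM. With so many genes and 8 points, high values arise for every receptor, and between 10 genes (Grm4) and 76 genes (Grm5) exceeded r = 0.9. For Grm5 they were Kcnj3, a subunit of the G protein-gated potassium channel (r = 0.982, rho = 0.929), Btbd10 (0.972, 0.976) and the potassium channel gene Kcnv1 (0.971, 0.976). For Grm2 they were the proteasome subunit gene Psmb10 (r = 0.988, rho = 0.952), Ap5s1 (0.968, 0.905) and Rrs1 (0.961, 0.905), and for Grm3 they were Fam129a (0.985, 0.976), Scyl3 (0.972, 0.976) and Pmpca (0.956, 0.905). Grm4 was closest to Inpp5a, an inositol polyphosphate phosphatase gene (r = 0.941, rho = 0.881), Scd3 (0.933, 0.881) and the Purkinje cell gene Ppp1r17 (0.931, 0.905). Grm7 was closest to the splicing factor gene Prpf8 (r = 0.984, rho = 0.929), Thbs2 (0.979, 0.976) and Ythdc2 (0.94, 0.905), and Grm8 to the calcium sensor gene Stim2 (r = 0.98, rho = 0.952), Wapal (0.958, 0.952) and Etnk1 (0.945, 0.905).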

How the data were processed

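Polyadenylated RNA of mouse brain was sequenced from 8 libraries made with a stranded kit, per the labels' protocols. The authors deposited expected counts per gene, 1 column per library, not scaled, and 91.5% of the values were whole within 0.001. TopHat2 2.0.9, edgeR and the build GRCm38 (mm10) are named, per the submitters' processing notes. How reads were counted, and whether by strand, is not given in the sources used here. Whether reads of a gene and of its antisense neighbour were told apart is therefore not known.

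Counts were rounded, filtered by filterByExpr, scaled by TMM and tested over all genes with edgeR 4.0.16 (R 4.3.3; robust quasi-likelihood test, group as the only term, Benjamini-Hochberg adjustment, threshold 0.05). SEs came from the coefficient and its F statistic, and 95% intervals, not adjusted over the 6 genes, from the SE. Log2 CPM used a prior count of 2. Lengths and positions came from GENCODE M21, which held 17286 of the 17613 genes. The alternatives tried were upper-quartile and median-ratio scaling, 2 other filters, DESeq2 1.42.0, limma-voom 3.58.1, the replicate number as a block, GC content and length trends removed, each library left out and, added after seeing the data, both libraries numbered 1 left out. The test was checked on simulated counts. Sampling noise did not account for the differences within a group (chi-square per degree of freedom 2.44 to 5.02), and p-values are set against the spread between libraries, which may be technical.

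The members and lists were chosen with earlier results of these data known. Named genes are the 6 members, Uhrf2, the 3 genes most correlated with each member (unnamed gene models and sex-linked genes left out), the members past the threshold of each pathway list or, with none, its 2 lowest p, and the highest gene of a marker list. Homer1 was added after its values were seen.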

Additional observations from a re-analysis of the deposited data

Results flagged for a closer look

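In 50 sets of 4 libraries, 4 had 1 library farther from the other 3 than Dixon's 95% limit allows, and chance alone flags about 1 in 20. Grm5 in KO replicate 2 stood at 136 CPM (136.4), with the other KO libraries from 163 to 167 CPM. In the same library the cortical excitatory neuron markers summed to 157 CPM (156.6), with the others from 190 (189.9) to 193 CPM. Grm7 in WT replicate 1 stood at 53.7 CPM, above 50.5 to 50.9 CPM in the other WT libraries. Uhrf2 in WT replicate 2 stood at 47.7 CPM, under 57.2 to 58.9 CPM in the other WT libraries.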

How the results depend on the processing

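None of the 6 receptors passed the threshold under any of the 17 alternatives, with adjusted p from 0.33 to 1. Of 102 alternative log2 fold changes, 12 changed sign, and none did for Grm2 or Grm7. With GC content and length trends removed, Grm4 went to -0.016 and Grm5 to 0.0044. Leaving out 1 library, the log2 fold change ran from -0.088 to 0.022 for Grm3, from -0.040 to 0.098 for Grm4, from -0.079 to 0.029 for Grm5 and from -0.010 to 0.11 for Grm8. Over all genes, the count past the threshold was 228, and between 110 (without WT replicate 3) and 324 (without KO replicate 2) with 1 library left out, 130 without KO replicate 3 and 146 without KO replicate 4. Per kilobase of the longest protein-coding transcript, the levels of Grm4, Grm5, Grm7 and Grm8 moved to 24.1, 19.8, 12.02 and 4.16. With the replicate number as a block the count of all genes was 495, and 0 of 6 receptors passed, with Grm2 at 0.11 (adjusted p = 0.33). The numbers share no stated origin. Deviations of same-numbered libraries correlated by 0.024 to 0.208, and 5 of 8 libraries correlated best with their own number. In both groups number 1 had the fewest counts (11891350 in WT, 13550420 in KO) and number 3 the most (19773921 and 19065173). Both libraries numbered 1 also lay apart on the second principal component. Whether same-numbered libraries were handled together is not known.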
